A study of Mus musculus with 4 samples.

Results

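The subject is 10 genes that carry leukocytes across a vessel wall: Icam1, Icam2, Vcam1, Selp and Sele on the vascular side, and Selplg, Itgam, Itgb2, Itga4 and Cd44 on the leukocyte side. They were chosen by name, not by their values, out of 41862 gene columns. They were read in 4 single-cell RNA libraries of central nervous system cells. The mice were C57BL6 and carried Aldh1l1CreERT2-TdTomato, a red reporter switched on by a Cre under the promoter of an astrocyte gene. The groups were TRAIL+ and TRAIL- cells of mice with experimental autoimmune encephalomyelitis (EAE) in its peak phase, induced with the myelin peptide MOG35-55 in complete Freund's adjuvant, and TRAIL+ and TRAIL- cells of naive mice. All 4 were sorted as TdTomato+ and LAMP1+. LAMP1 normally sits in the lysosome wall, and TRAIL (gene Tnfsf10) triggers apoptosis in cells that bear its receptors. EAE is a model of multiple sclerosis in which leukocytes enter the brain and spinal cord. The study used 3 EAE mice and 3 naive mice, each group is 1 library, and the labels do not state whether mice were pooled. No p-value can therefore be had, and every interval below covers counting error only.

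Leukocytes leave blood in steps. P-selectin (Selp) and E-selectin (Sele) on the endothelium catch rolling cells through glycoproteins such as PSGL-1 (Selplg) and decorated CD44. Integrins of the leukocyte then bind the endothelium firmly: the pairs of Itgb2 with Itgal (LFA-1) or Itgam (Mac-1) bind ICAM proteins, and Itga4 with Itgb1 (VLA-4) binds VCAM-1. In brain vessels Icam1 and Vcam1 are known to rise with inflammatory cytokines, and antibody against the Itga4 chain is a treatment of multiple sclerosis.

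The libraries held 1810 EAE TRAIL+, 1569 EAE TRAIL-, 2225 naive TRAIL+ and 2218 naive TRAIL- cells after filtering, with median depths between 947 and 1904.5 UMIs (counted molecules) a cell. The labels call the cells astrocytes. Cells with astrocyte markers numbered only 6, 4, 112 and 21 in the same order of libraries. Microglia-like cells made up 83.3% of EAE TRAIL+ and 83.7% of naive TRAIL+ cells, against 15% of EAE TRAIL- and 13.9% of naive TRAIL- cells. Endothelial-like cells were 31.4% of EAE TRAIL- and 51.6% of naive TRAIL- cells, and pericyte- or smooth muscle-like cells were 29.0% and 22.6% of them. Monocyte-like cells numbered 98 in EAE TRAIL+ and 211 in EAE TRAIL-, while naive TRAIL+ held 5 and naive TRAIL- 12 of them. The adhesion genes are therefore described class by class. Of 7642 distinct cell barcodes, 179 occurred in more than 1 library.

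**Figure D1:**
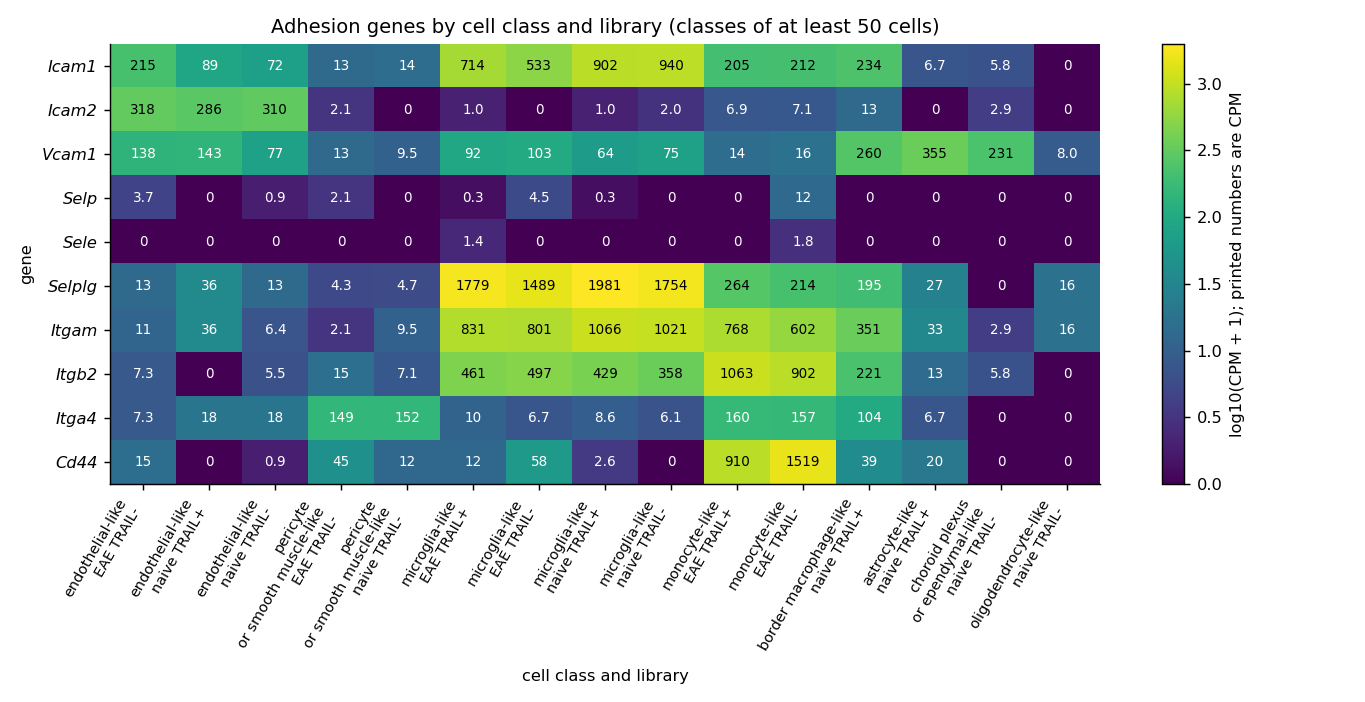
Level of each adhesion gene (rows) in each cell class and library with at least 50 cells (columns), with the colour on a log10(CPM + 1) scale and CPM (UMIs of the gene per 1e+06 UMIs of the class) printed in each field. Icam2 is bright in the endothelial-like columns alone, Selplg and Icam1 are brightest in microglia-like cells, and Cd44 is brightest in monocyte-like cells.

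Per GENCODE vM21 on GRCm38, Icam1 lies at chr9:21015985-21028817 (+), Vcam1 at chr3:116109949-116129688 (-), Icam2 at chr11:106377656-106388075 (-), and Sele (chr1:164048234-164057677) and Selp (chr1:164115264-164150026) lie on the + strand of the same chromosome. On the leukocyte side Selplg lies at chr5:113818536-113832644 (-), Itgam at chr7:128062640-128118491 (+), Itgb2 at chr10:77530252-77565708 (+), Itga4 at chr2:79255426-79333123 (+) and Cd44 at chr2:102811141-102901665 (-). All 10 are protein-coding, and the labels do not say which part of a gene was counted.

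The 10 genes differed in how much they were seen. Over all 7822 kept cells Selplg had 13741 UMIs, Itgam 7720, Icam1 6338, Itgb2 4302, Cd44 1399, Vcam1 1151, Icam2 551 and Itga4 413. Selp had 15 UMIs in 11 cells and Sele 6 UMIs in 6 cells. The selectins of the vessel wall are below what these libraries can compare.

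Icam1 in endothelial-like cells was higher in EAE, and it was the vascular gene with the largest ratio there. Icam1 encodes the main endothelial partner of LFA-1 and Mac-1. Its level was 215 CPM (95% Poisson interval 178 to 258; 117 UMIs in 493 cells) in EAE TRAIL- cells and 72.3 CPM (57.3 to 90.1; 79 UMIs in 1144 cells) in naive TRAIL- cells, 2.97-fold higher in EAE (exact 95% interval of the ratio 2.21 to 4.0). The UMIs were spread over 52 EAE TRAIL- cells and 44 naive TRAIL- cells. With every cell thinned to 500 UMIs, 6.69% of EAE TRAIL- cells (4.65 to 9.27) had a UMI of Icam1, against 2.36% of naive TRAIL- cells (1.56 to 3.42). The 53 endothelial-like cells of naive TRAIL+ had 5 UMIs of Icam1, and EAE TRAIL+ held only 3 such cells.

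Between EAE TRAIL- and naive TRAIL- endothelial-like cells, 3 of the 10 genes reached the depth needed for a comparison, a mean of 20 CPM and 20 UMIs over both libraries. A difference of at least 2-fold was found for 1 of them, Icam1. The background was 5.55% higher, 5.18% lower and 10.7% in either direction, of the 6724 genes compared. Markers of microglia summed to 219 CPM in EAE TRAIL-, with 263 CPM in naive TRAIL- endothelial-like cells, and 13 of the 15 were seen in the EAE library and all 15 in the naive one. Markers of monocytes summed to 2206 and 1542 CPM in the same order, with none of the 13 at 0 in EAE TRAIL- and Ccr2 and Clec4d at 0 in naive TRAIL-. In every endothelial-like cluster 1 gene of the monocyte list was itself raised, so this sum is not a measure of monocyte RNA alone. Immediate early genes, which rise within minutes of cell stress or dissociation, summed to 19367 CPM in EAE TRAIL- against 23887 CPM in naive TRAIL-. The sum was lower in EAE, but not each gene in it. Atf3 (1.14), Fosb (1.07), Egr1 (1.06) and Junb (1.02) had ratios above 1, and the other genes of the list were lower. The part of immediate early genes in the Icam1 difference was not tested.

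The promoter windows of the member that moved in endothelium and of the selectin that was not seen there are shown side by side, because both genes are known to be induced by cytokines. Each line holds the 250 bases before the RefSeq start of the gene on GRCm38.p6, written 5′ to 3′ on the gene's strand, with matches to TTCNNNGAA, the form bound by STAT proteins, in capitals. The window of Icam1 is chr9:21015690-21015939 (+ strand) and that of Sele chr1:164047984-164048233 (+ strand). The Icam1 window ends ahead of the GENCODE start at 21015985. The bases that follow it were not found in a GENCODE transcript of Icam1, while those of Sele were found in one of Sele.
Icam1: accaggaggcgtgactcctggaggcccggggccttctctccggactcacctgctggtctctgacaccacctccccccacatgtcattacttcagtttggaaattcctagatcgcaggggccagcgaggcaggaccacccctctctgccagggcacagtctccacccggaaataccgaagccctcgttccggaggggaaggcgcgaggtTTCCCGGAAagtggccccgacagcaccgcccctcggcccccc
Sele: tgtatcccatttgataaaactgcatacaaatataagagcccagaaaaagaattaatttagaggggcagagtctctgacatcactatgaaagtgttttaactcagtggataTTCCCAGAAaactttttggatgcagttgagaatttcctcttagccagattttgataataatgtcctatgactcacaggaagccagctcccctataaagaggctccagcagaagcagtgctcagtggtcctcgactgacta
Each of these windows held 1 match, and 7.01% of 32817 promoter windows of the same length held it. Neither held the strict NF-kappaB consensus GGGRNWYYCC (R is A or G, W is A or T, Y is C or T) on either strand, which 3.9% of windows held. A search for this form misses sites that depart from it. The Icam1 window holds tggaaattcc and the Sele window GGATATTCCC, each 1 base off it on 1 strand, so a lack of NF-kappaB sites cannot be read from the search. A looser form of it, with only the opening GGG and the closing CC fixed, had 1 match in each of them and was in 45.8% of all windows; in Sele it overlapped the TTCNNNGAA match. Such letters are a description and not evidence of binding. RefSeq windows were found for 6 of the 10 genes.

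Most Icam1 UMIs of the class lay outside its arterial-like clusters. In the arterial-like clusters, which were led by genes such as Sema3g and Gkn3, Icam1 was 61.5 CPM in EAE TRAIL-, with 31.7 CPM in naive TRAIL-, and the ratio of 1.94 had an interval of 0.68 to 5.53 on 9 UMIs each. In the other endothelial-like cells it was 271 CPM (223 to 327) in EAE TRAIL-, with 86.6 CPM (67.5 to 109) in naive TRAIL-, 3.13-fold higher (2.3 to 4.29). Arterial-like cells had less Icam1 than the others in EAE TRAIL- (ratio 0.23, 0.10 to 0.45) and in naive TRAIL- (0.37, 0.16 to 0.73). That the EAE ratio itself differs between arterial-like and other cells was not tested, and the intervals of the ratios overlap. The arterial-like cells also differ in make-up between the libraries. A cluster of them held 96 EAE TRAIL- and 114 naive TRAIL- cells, and the other 25 and 151. Of 8 endothelial-like clusters with at least 20 cells in both libraries, Icam1 was higher in EAE TRAIL- in 6 and lower in 2. A single cluster held the most, 433 CPM in EAE TRAIL-, with 165 CPM in naive TRAIL-. Among endothelial-like clusters its leading genes included Ppp1r10, Icam1, Ier3, Gadd45b, Ier5 and Fosb, of which Ier3, Gadd45b, Ier5 and Fosb are early response genes that cell stress also raises. It took 133 of the 493 EAE TRAIL- and 178 of the 1144 naive TRAIL- endothelial-like cells, and the part of such a response in the Icam1 difference was not tested. Without this cluster the ratio over the class was 2.31, and without the barcodes shared between libraries it was 2.81.

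Vcam1, the partner of VLA-4, pointed the same way with less support. It was 138 CPM (108 to 173) in EAE TRAIL-, with 76.9 CPM (61.4 to 95.2) in naive TRAIL- endothelial-like cells, a ratio of 1.79 (1.29 to 2.48), under the 2-fold line. The 75 UMIs of EAE TRAIL- came from 18 cells, and 57.3% of them from 5 cells. The 84 UMIs of naive TRAIL- came from 24 cells. Thinned, 2.64% of EAE TRAIL- cells (1.41 to 4.47) and 1.40% of naive TRAIL- cells (0.80 to 2.26) had a UMI, and these intervals overlap. Unlike Icam1, Vcam1 was higher in arterial-like than in other cells: 2.03-fold (1.24 to 3.28) in EAE TRAIL- and 1.93-fold (1.21 to 3.05) in naive TRAIL-. Its ratio of EAE TRAIL- over naive TRAIL- was 1.83 (1.09 to 3.05) in arterial-like and 1.75 (1.13 to 2.68) in other endothelial-like cells. The arterial-like ratio is over clusters held in unlike shares by the libraries, as given for Icam1, and their part was not tested.

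Icam2, an ICAM that resting endothelium carries, had close levels in both groups. It was 318 CPM (272 to 369) in EAE TRAIL-, with 310 CPM (278 to 345) in naive TRAIL- endothelial-like cells, a ratio of 1.02 with an interval of 0.85 to 1.23. Of its UMIs, 96.1% in EAE TRAIL- and 99.4% in naive TRAIL- lay in endothelial-like cells. It was at 2.13 CPM or less in the pericyte- or smooth muscle-like cells of both TRAIL- libraries and in the microglia-like cells of all 4.

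**Figure D2:**
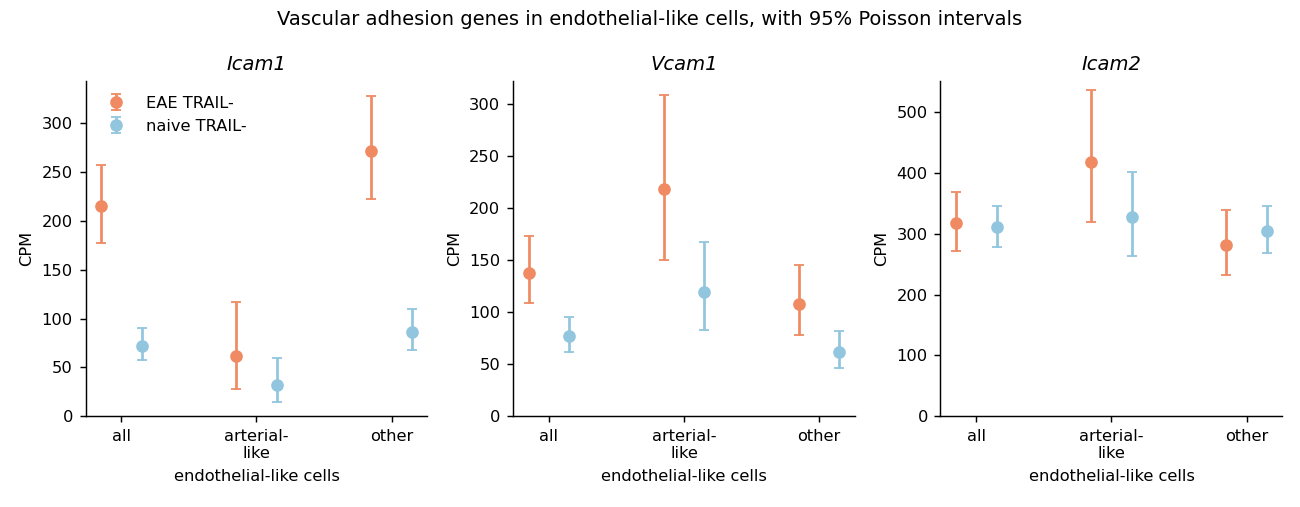
CPM of Icam1, Vcam1 and Icam2 (one panel each) in all, arterial-like and other endothelial-like cells, with EAE TRAIL- left and naive TRAIL- right in each pair; points are library values and bars exact 95% Poisson intervals. Icam1 separates outside arterial-like cells (271 CPM in EAE TRAIL-, 86.6 in naive TRAIL-), Vcam1 is highest in arterial-like cells and Icam2 overlaps throughout.

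Of the selectins, Sele was not detected and Selp barely in the same cells. Sele had 0 UMIs in the 493 EAE TRAIL- and 1144 naive TRAIL- endothelial-like cells. A count of 0 allows up to 5.51 CPM and 0.609% of cells with a UMI in EAE TRAIL-, and up to 2.75 CPM and 0.262% of cells in naive TRAIL-. Selp had 2 UMIs in 1 EAE TRAIL- cell and 1 UMI in 1 naive TRAIL- cell of this class. Monocyte-like cells of EAE TRAIL- held 7 of the 15 Selp UMIs of the series, in 4 cells.

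Among the other genes of leukocyte entry, several that are known to follow cytokines in endothelium were higher in EAE. Of 17 measured genes of the cytokine-induced list, 5 were at least 2-fold higher in EAE TRAIL- endothelial-like cells and none lower. The background was 5.55% higher and 5.18% lower of 6724 genes. The median log2 ratio of the list was 0.43 against -0.03 over all genes compared. Lrg1, a leucine-rich glycoprotein, had 79.0 CPM in EAE TRAIL- and no UMI in naive TRAIL-. Its ratio was 28.8 when the naive count is set to 3 UMIs over the class, a value that leaves out counting error. Ch25h, which makes 25-hydroxycholesterol, was 197 CPM in EAE TRAIL-, with 31.1 CPM in naive TRAIL-, 6.31-fold higher. Il1r1, the receptor of interleukin-1, was 3.05-fold higher, the neutrophil chemokine Cxcl1 2.50-fold and the interferon-responsive factor Irf1 2.33-fold. Nfkb1 and Nfkb2 were the lowest of the list, with ratios of 0.62 and 0.69. Lrg1 and Il1r1 are also on the list of venous endothelial markers. Ackr1, another venous marker, had 10 UMIs in EAE TRAIL- and 0 in naive TRAIL-. No endothelial-like cluster was named venous, and the part of venous cells in these values was not tested. Of 9 transmigration and junctional genes measured, none was 2-fold apart, with Mcam at 1.82 and F11r at 0.84 as the extremes, and Pecam1, which guides leukocytes between endothelial cells, at 1043 CPM in EAE TRAIL- against 1125 CPM in naive TRAIL-. Of 7 selectin and selectin-ligand genes, 1 was lower, the tyrosylprotein sulfotransferase Tpst1 (16.5 CPM in EAE TRAIL-, with 46.7 CPM in naive TRAIL-).

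In pericyte- or smooth muscle-like cells Itga4 was close between the groups and Cd44 was higher in EAE, with most of its UMIs in 1 cluster. Of 10 genes, 2 could be compared between EAE TRAIL- and naive TRAIL-, and 1 was at least 2-fold higher, against a background of 6.3% higher, 7.37% lower and 13.7% in either direction of 6726 genes. Itga4, the alpha chain of VLA-4, was 149 CPM (116 to 189) in EAE TRAIL-, with 152 CPM (117 to 194) in naive TRAIL-, a ratio of 0.98 (0.69 to 1.40). Pericyte- or smooth muscle-like cells held 38.9% of the Itga4 UMIs of EAE TRAIL- and 68.8% of those of naive TRAIL-. Monocyte markers summed to 175 and 68.8 CPM there, against 28876 CPM in monocyte-like cells of EAE TRAIL-, while Itga4 was 157 CPM in those monocyte-like cells. The part of monocyte RNA in the Itga4 values was not tested. Itgb1, the beta chain of VLA-4, was 1.06-fold apart.

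Cd44 in this class was 44.8 CPM (27.7 to 68.4) in EAE TRAIL-, with 11.9 CPM (3.85 to 27.7) in naive TRAIL-, 3.77-fold higher (1.39 to 12.8). The 21 UMIs of EAE TRAIL- lay in 8 cells. A smooth muscle cluster led by Acta2, Tagln and Myh11 had 308 CPM on 16 UMIs in its 42 EAE TRAIL- cells and 0 UMIs in its 22 naive TRAIL- cells. Without this cluster the ratio was 0.96. In the same EAE TRAIL- library Cd44 was 14.7 CPM in endothelial-like and 25.7 CPM in oligodendrocyte-like cells. In naive TRAIL- it was 0.916 CPM in endothelial-like cells, and oligodendrocyte-like cells had 0 UMIs. Thinned shares were 1.10% of EAE TRAIL- cells (0.36 to 2.55) and 0.60% of naive TRAIL- cells (0.12 to 1.74) and overlap.

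Microglia-like cells had the highest Icam1 of any named class, and there it was lower in EAE. Icam1 was 714 CPM (683 to 745) in EAE TRAIL+, with 902 CPM (869 to 936) in naive TRAIL+, a ratio of 0.79 (0.75 to 0.84). It was 533 CPM (467 to 605) in EAE TRAIL-, with 940 CPM (856 to 1029) in naive TRAIL-, a ratio of 0.57 (0.48 to 0.66). The EAE libraries were thus lower in both TRAIL fractions, and their intervals did not reach those of the naive libraries. Thinned, 24.4% of EAE TRAIL+ and 16.5% of EAE TRAIL- cells had a UMI of Icam1, against 29.6% of naive TRAIL+ and 32.7% of naive TRAIL- cells. Neither ratio reached 2-fold.

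Immediate early genes moved with Icam1 in this class. The 10 of the list summed to 28090 CPM in EAE TRAIL+, with 20493 CPM in EAE TRAIL-, against 35871 CPM in naive TRAIL+ and 36526 CPM in naive TRAIL-, the same order of the 4 libraries as for Icam1. In EAE TRAIL- over naive TRAIL- cells, 5 of the 10 were at least 2-fold lower, Fosb (0.27) and Jun (0.38) the most. The background was 11.8% lower of 6156 genes. The part of immediate early genes in the Icam1 values was not tested.

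Clusters of microglia-like cells were held by different libraries. The clusters with Cd74, H2-Ab1 or H2-Aa, genes of antigen presentation, among their leading genes were nearly all EAE, while others held cells of both states. Of 12 clusters with at least 20 cells in EAE TRAIL+ and naive TRAIL+, Icam1 was higher in EAE TRAIL+ in 5 and lower in 7, with ratios between 0.68 and 1.89. Icam1 was 91.6 CPM in the EAE TRAIL+ and 115 CPM in the EAE TRAIL- cells of a cluster led by Ccl5, Cst7 and H2-Ab1, and 883 CPM in EAE TRAIL+ cells of a cluster led by Gdf15, Tnfsf9 and Tnf, so the EAE-held clusters lay far apart.

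**Figure D3:**
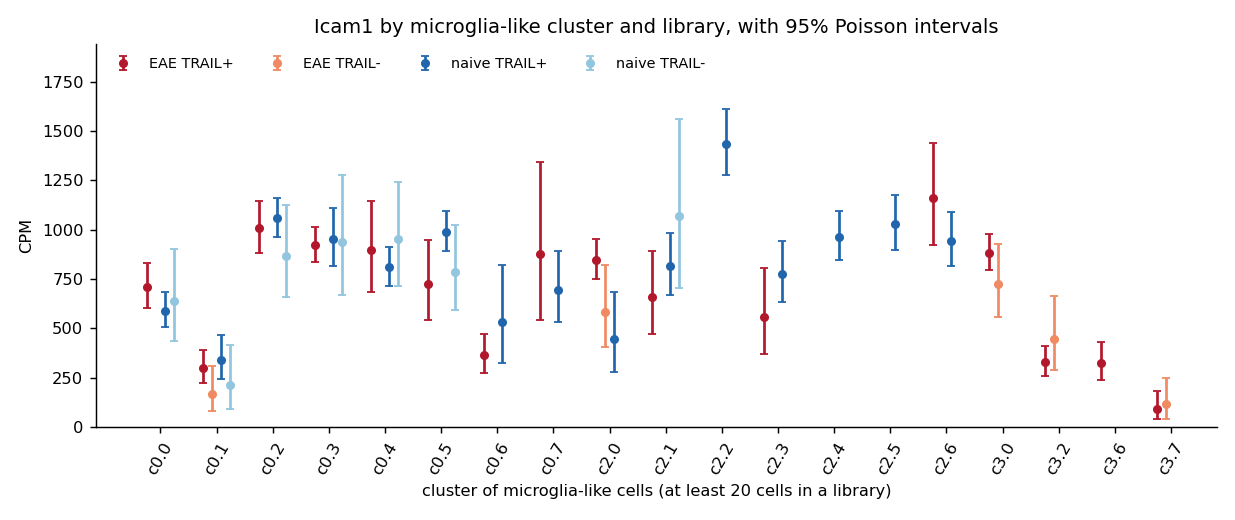
Icam1 in CPM (vertical axis) for each cluster of microglia-like cells (horizontal axis, working cluster numbers) with at least 20 cells in a library; colours mark the libraries, EAE left of naive within a cluster, and bars are exact 95% Poisson intervals. Where both states share a cluster most intervals overlap, and the clusters at the right, held almost only by EAE cells, run between 91.6 and 883 CPM in EAE TRAIL+.

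Selplg, Itgam and Itgb2 formed the leukocyte-side set that microglia-like cells carried at high level. Selplg, the selectin ligand, was 1779 and 1489 CPM in EAE TRAIL+ and EAE TRAIL-, against 1981 and 1754 CPM in naive TRAIL+ and naive TRAIL-; the ratios were 0.90 (0.87 to 0.93) and 0.85 (0.77 to 0.94). Itgam, the alpha chain of Mac-1, was 831 and 801 CPM in the EAE libraries, against 1066 and 1021 CPM in the naive ones, with ratios of 0.78 and 0.79. Itgb2, the shared beta chain, was higher: 461 and 497 CPM in EAE, against 429 and 358 CPM in naive, with ratios of 1.07 (0.995 to 1.16) in TRAIL+, or 0.97 with TMM scaling, and 1.39 (1.13 to 1.70) in TRAIL-. All these shifts were below 2-fold.

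Vcam1 was also seen in microglia-like cells, at 92.5 CPM (81.8 to 104) in EAE TRAIL+, with 64.5 CPM (55.8 to 74.2) in naive TRAIL+, a ratio of 1.43 (1.19 to 1.73). It was 103 CPM in EAE TRAIL-, with 74.9 CPM in naive TRAIL-, a ratio of 1.37 (0.87 to 2.18). None of the 5 members compared between EAE TRAIL+ and naive TRAIL+ was 2-fold apart, against a background of 2.77% higher, 0.609% lower and 3.38% in either direction of 6241 genes. Between EAE TRAIL- and naive TRAIL- 1 of 6, Cd44, was at least 2-fold higher, against a background of 10.4% higher, 11.8% lower and 22.3% in either direction of 6156 genes. Its level in naive TRAIL- was 0 UMIs. The 26 UMIs of EAE TRAIL- give a ratio of 9.58 with the naive count set to 3 UMIs over the class, a value that leaves out counting error. With a floor of 50 CPM the gene was no longer compared. Monocyte markers summed to 801 CPM in EAE TRAIL-, with 304 CPM in naive TRAIL- microglia-like cells, with 1 of the 13 at 0 in EAE TRAIL- and 6 in naive TRAIL-. Ccr2, a monocyte chemokine receptor, had 11 UMIs in EAE TRAIL- and 1 UMI in naive TRAIL-, and the part of monocyte RNA in the Cd44 value was not tested. The alpha chain Itgax, which also pairs with Itgb2 and is no member, was 36.4 CPM in EAE TRAIL+, with 4.93 CPM in naive TRAIL+, 7.38-fold higher (4.28 to 13.7).

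**Figure D4:**
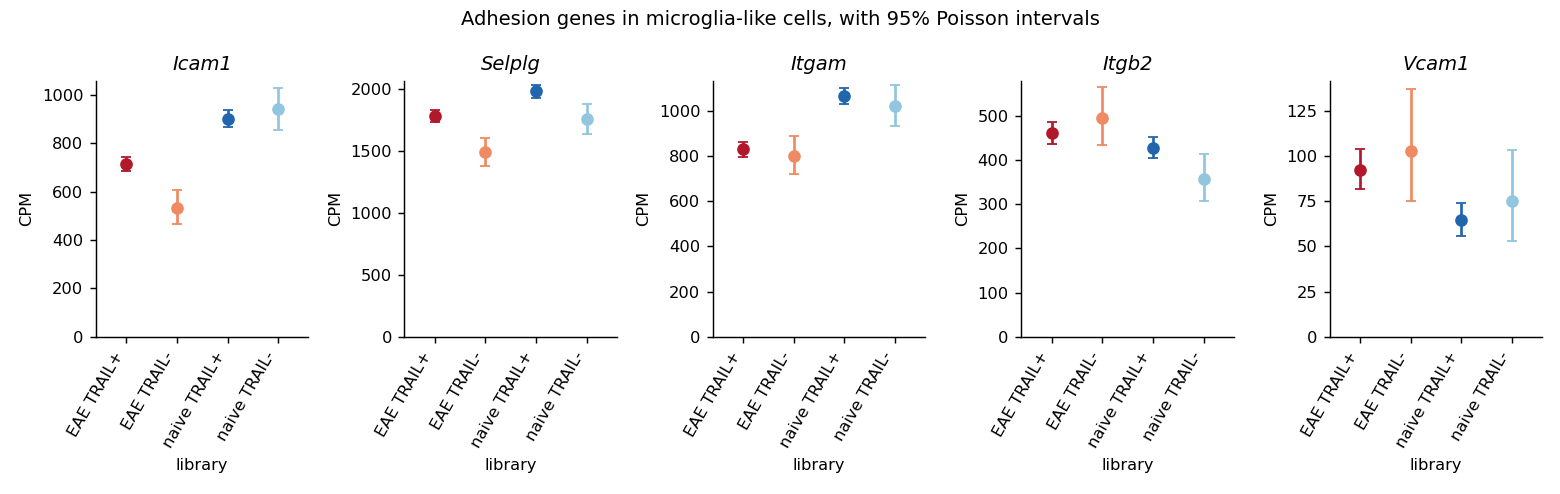
CPM of 5 adhesion genes in microglia-like cells of the 4 libraries (horizontal axis, EAE left), with exact 95% Poisson intervals as bars. Icam1, Selplg and Itgam are lower in EAE than in naive libraries within each TRAIL fraction, and Itgb2 and Vcam1 are higher, except that the Itgb2 ratio in TRAIL+ is 0.97 with TMM scaling.

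Between the TRAIL fractions the microglial levels of most members were close. In EAE, TRAIL+ over TRAIL- ratios were 1.34 (1.17 to 1.54) for Icam1, 1.19 for Selplg, 1.04 for Itgam, 0.93 for Itgb2 and 0.90 for Vcam1. In naive mice they were 0.96, 1.13, 1.04, 1.20 and 0.86 for the same genes. None of 5 members was 2-fold apart in naive microglia-like cells, against a background of 1.95% higher, 3.08% lower and 5.02% in either direction of 6112 genes. In EAE 1 of 6 was at least 2-fold lower in TRAIL+, against a background of 4.4% higher, 3.63% lower and 8.02% in either direction of 6344 genes. This was Cd44, at 11.7 CPM (8.10 to 16.3) in TRAIL+, with 58.2 CPM (38.0 to 85.3) in TRAIL-, a ratio of 0.20 (0.12 to 0.35). The 26 UMIs of EAE TRAIL- lay in 17 of 236 cells. Monocyte markers summed to 640 CPM in EAE TRAIL+, with 801 CPM in EAE TRAIL- microglia-like cells, and their part in the Cd44 value was not tested.

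Cd44 was a gene of the monocyte-like cells. Cd44 encodes the hyaluronan receptor, which also carries the sugars that E-selectin binds. It was 910 CPM (803 to 1027) in EAE TRAIL+, with 1519 CPM (1418 to 1624) in EAE TRAIL- monocyte-like cells, and these cells held 74.2% and 87.2% of all Cd44 UMIs of their libraries. Thinned, 35.7% (26.3 to 46.0) and 37.4% (30.9 to 44.3) of them had a UMI. In the same EAE TRAIL- library, 0 of the 493 endothelial-like cells had one after thinning, which allows up to 0.609%, with median depths of 1039 UMIs there. Border macrophage-like cells stood between, at 352 CPM in 46 EAE TRAIL+ cells and 39.0 CPM in 59 naive TRAIL+ cells. This class is a cluster of 119 cells in which 9 of 10 border macrophage markers were raised. By each barcode's own marker UMIs only 1 of them took that name. Of the rest, 47 were named microglia, 5 monocyte and 66 stayed unnamed, so the class name is uncertain.

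The TRAIL fractions differed in which monocyte-like cells they held. A cluster led by Chil3, Plac8 and Clec4e had 17 EAE TRAIL+ and 123 EAE TRAIL- cells, with Cd44 at 1825 CPM (1685 to 1974) in the TRAIL- cells. A cluster led by Arg1, H2-Ab1 and Gpnmb had 81 EAE TRAIL+ and 88 EAE TRAIL- cells, with Cd44 at 947 and 1034 CPM, a ratio of 0.92. Over monocyte- and border macrophage-like cells together, the ratio of TRAIL+ over TRAIL- was 0.52 (0.45 to 0.59), over classes that differ in these clusters and in having 46 EAE TRAIL+ and 5 EAE TRAIL- macrophage-like cells. With TMM scaling it was 0.49, past the 2-fold line.

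Of 7 members compared there between EAE TRAIL+ and EAE TRAIL-, 1 was at least 2-fold higher, against a background of 10.4% higher, 8.57% lower and 18.9% in either direction of 5750 genes. This was Vcam1, at 73.9 CPM in TRAIL+, with 15.8 CPM in TRAIL-. It was 264 CPM in the 46 EAE TRAIL+ border macrophage-like cells, and 13.9 CPM in EAE TRAIL+, with 16.0 CPM in EAE TRAIL- monocyte-like cells taken alone. Few border macrophage-like cells kept that name by their own marker UMIs. With classes from each barcode's own markers, no member was past 2-fold in this comparison. Itgb2 (892 and 890 CPM), Itga4 (156 and 158 CPM), Itgam (649 and 593 CPM), Selplg (232 and 210 CPM) and Icam1 (190 and 209 CPM) had ratios between 0.91 and 1.10 in TRAIL+ over TRAIL-, with intervals that hold 1.

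The partner chains Itgal and Itgb7, which are not members, were lower in TRAIL+ in these cells. Itgal, the alpha chain of LFA-1, was 66.0 CPM in EAE TRAIL+, with 218 CPM in EAE TRAIL-, a ratio of 0.30 (0.19 to 0.47). Itgb7, which pairs with Itga4, had a ratio of 0.33 (0.16 to 0.63). Of 8 integrin activation genes 2 were lower, Cytip (0.39) and Rasgrp2 (0.47). Among 5 genes of hyaluronan or of other Cd44 partners, 2 were lower, Vcan (0.27) and Ezr (0.36). The background was 8.57% lower of 5750 genes. Vcan is also on the monocyte marker list that named the classes. All these ratios are over classes that differ in their clusters, and the part of that difference was not tested.

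**Figure D5:**
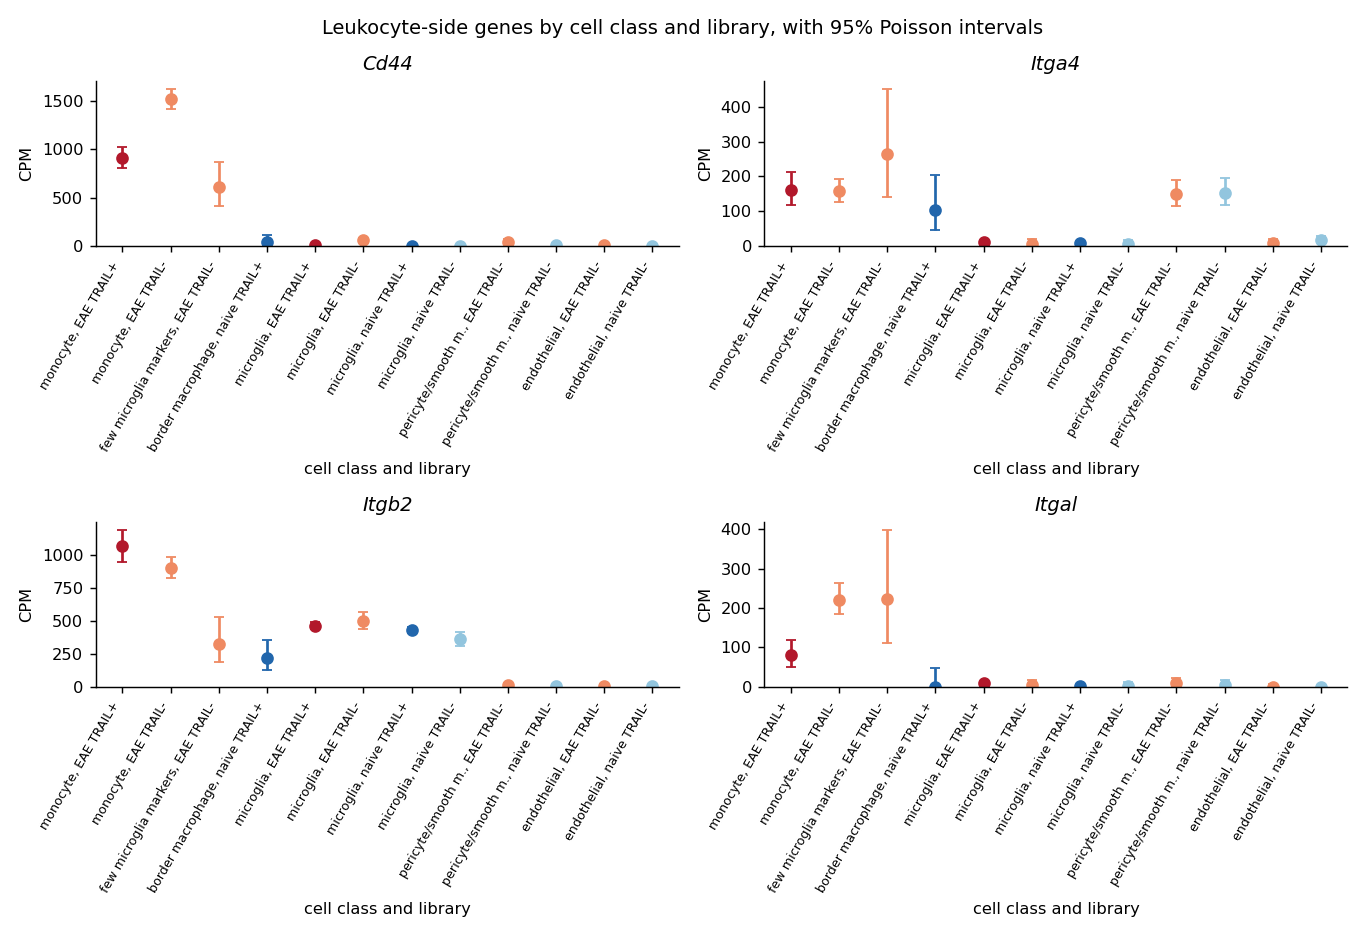
CPM of Cd44, Itga4, Itgb2 and Itgal (one panel each) in cell classes and libraries along the horizontal axis, with exact 95% Poisson intervals as bars and colours marking the libraries. Cd44 and Itgal are highest in monocyte-like cells and in the 33 EAE TRAIL- barcodes with few microglia markers, and Itga4 is as high in pericyte- or smooth muscle-like cells as in monocyte-like cells.

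The promoters of Itgam and Cd44 are shown because Itgam was shared by microglia- and monocyte-like cells and Cd44 was largely monocyte-like. The lines hold the same 250 bases before the RefSeq start, with matches to GAGGAA, the core bound by the myeloid factor PU.1, or to its reverse complement in capitals. The window of Itgam is chr7:128062390-128062639 (+ strand) and that of Cd44 chr2:102901666-102901915 (- strand).
Itgam: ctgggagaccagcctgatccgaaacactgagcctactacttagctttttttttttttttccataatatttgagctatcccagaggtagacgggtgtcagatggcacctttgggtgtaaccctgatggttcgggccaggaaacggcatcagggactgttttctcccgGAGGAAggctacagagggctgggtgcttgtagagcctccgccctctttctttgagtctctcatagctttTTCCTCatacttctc
Cd44: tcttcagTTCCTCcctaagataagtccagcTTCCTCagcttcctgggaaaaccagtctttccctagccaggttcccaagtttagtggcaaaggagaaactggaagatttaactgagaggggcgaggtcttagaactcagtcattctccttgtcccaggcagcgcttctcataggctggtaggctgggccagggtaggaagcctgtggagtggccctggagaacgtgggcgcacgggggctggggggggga
Each window held 2 matches, and 23.3% of all windows held at least 1.

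A small set of EAE TRAIL- barcodes clustered with microglia while carrying under 1% of UMIs from microglia markers, and it was kept apart. Its 33 cells were mixed by their markers, which summed to 4403 CPM for dendritic cells, 3429 CPM for monocytes (11 of 13 seen, Plac8 and S100a4 the most) and 2354 CPM for T or NK cells. Single genes included Ccr7 at 2273 CPM, Ctla4 at 873 CPM and Trac at 487 CPM. Which of these cells carried the adhesion genes was not tested. Their Cd44 was 609 CPM (411 to 869), Itga4 264 CPM (141 to 451), Itgb2 325 CPM, Itgal 223 CPM and Selplg 548 CPM. The other libraries held 10, 8 and 5 such barcodes in EAE TRAIL+, naive TRAIL+ and naive TRAIL-. The set had too few cells for any comparison between libraries.

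Outside these classes, Vcam1 was a gene of several brain cells. It was 355 CPM (266 to 464) in the 112 astrocyte-like cells of naive TRAIL+, with a UMI in 25.9% of them. It was 214 CPM (148 to 299) in 40 EAE TRAIL- and 231 CPM (183 to 288) in 90 naive TRAIL- choroid plexus- or ependymal-like cells, and 561 CPM in 29 naive TRAIL- fibroblast-like cells. Border macrophage-like cells had 264 CPM in EAE TRAIL+, with 260 CPM in naive TRAIL+. By level, the interval of fibroblast-like cells (386 to 787) overlapped that of astrocyte-like cells, and those of astrocyte-, border macrophage- and choroid plexus- or ependymal-like cells overlapped each other. The interval of endothelial-like cells of EAE TRAIL- (108 to 173) overlapped that of choroid plexus- or ependymal-like cells and that of microglia-like cells in the same library (75.4 to 137). In naive TRAIL-, endothelial-like cells (61.3 to 95.2) and microglia-like cells (52.8 to 103) overlapped as well.

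Both sides of each pair were set beside each other in EAE TRAIL-, the library with vessel and infiltrating cells together. Icam1 at 215 CPM in endothelial-like cells faced Itgb2 at 902 CPM, Itgam at 602 CPM and Itgal at 221 CPM in monocyte-like cells. Vcam1 at 138 CPM faced Itga4 at 157 CPM there, and the selectins at or near 0 faced Selplg at 214 CPM. The share of cells with both chains of Mac-1 was set beside the product of the separate shares. Thinned, 9.48% of these monocyte-like cells (5.89 to 14.3) had both Itgam and Itgb2, and the product of the shares was 7.76%. In EAE TRAIL+ microglia-like cells 5.11% (4.05 to 6.34) had both, and the product was 4.84%. Without thinning it was 27.5% (25.3 to 29.8) of these microglia-like cells, above the product of 23.97%. Cells differ in depth without thinning, and deeper cells show both chains more often, so this excess cannot be read as pairing of the chains. At equal depth both intervals held the product.

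Over all kept cells the TRAIL fractions differed in their classes as well as in the members. Between TRAIL+ and TRAIL-, 6 of 8 members compared were at least 2-fold apart in EAE and 6 of 7 in naive mice, against backgrounds of 9.34% higher, 18.6% lower and 28% in either direction of 7279 genes in EAE, and 11.5%, 24% and 35.5% of 7491 genes in naive mice. Icam1 (2.80 and 3.71), Selplg (4.01 and 5.06) and Itgam (2.45 and 4.44) were higher in TRAIL+ in EAE and naive mice, and Icam2 (0.029 and 0.048) and Itga4 (0.36 and 0.34) lower. Among cells of at least 1000 UMIs the Itga4 ratio in naive mice was 0.57. The TRAIL+ libraries were 83.3% and 83.7% microglia-like, and within microglia-like cells none of Icam1, Selplg and Itgam was 2-fold apart. Between EAE TRAIL- and naive TRAIL-, 3 of 8 members were at least 2-fold higher, against a background of 5.9% higher, 5.86% lower and 11.8% in either direction of 7713 genes. These were Itgb2 (4.08), Itga4 (2.10) and Cd44 (25.2). Itga4 fell below 2-fold, to 1.98, without the barcodes shared between libraries and to 1.54 as a mean of each cell's own CPM. Monocyte-like cells held 61.4% of the Itgb2 UMIs of EAE TRAIL- and 11% of those of naive TRAIL-. Between EAE TRAIL+ and naive TRAIL+, 1 of 6 members, Cd44 (12.7), was at least 2-fold higher, against a background of 3.42% higher, 2.84% lower and 6.25% in either direction of 6558 genes. Icam1 over all cells was 224 CPM in EAE TRAIL-, with 213 CPM in naive TRAIL-, although it was 2.97-fold higher in EAE in endothelial-like and lower in microglia-like cells.

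Each member's closest genes in level were found over the 15 class and library points of at least 50 cells, as the Pearson correlation of log2(CPM + 10). These points share libraries and cells of a class, so the values only describe. Icam1 was closest to Dusp2 (0.98), Tut7 (0.98) and Ier5 (0.97), Icam2 to Clec14a (0.99), Igfbp3 (0.98) and Hmcn1 (0.98), and Vcam1 to Gas6 (0.89), Atp6v0a1 (0.86) and Msrb2 (0.83). Selplg was closest to Il10ra and Tnf (0.99 each), Itgam to Basp1, Bcl2a1b and Tlr13 (0.98 to 0.99), and Itgb2 to Cd86, Bcl2a1d and Rac2 (0.98 to 0.99). Itga4 was closest to Mndal (0.94), Iqsec3 (0.94) and Antxr2 (0.91), and Cd44 to Il1rn (0.97), Clec4d (0.96) and Chil3 (0.95). Selp and Sele were too low for such a list.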

How the data were processed

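Single cells from the central nervous system of 3 EAE and 3 naive mice were sorted into 4 groups and made into inDrops v3 libraries, 1 per group. The count tables deposited by the authors hold UMI counts per gene and barcode, not normalized. Per the submitters' processing notes Bowtie and GRCm38 were used, with no version or annotation given in the sources used here. Barcodes with at least 500 UMIs and at most 20% mitochondrial UMIs were kept (7899 of 12987), and 77 doublets called by Scrublet were removed, which left 7822 cells with 2483010 to 3743804 UMIs per library.

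Cells were clustered with scanpy 1.11.5 and leidenalg 0.10.2 (57 clusters), leaving out the 10 members and the genes of all pathway lists, and named from marker lists; 5 clusters (264 cells) stayed unnamed. Naming thresholds, the 2 levels of clustering and the 1% limit on microglia markers were set after the values were seen, and the members and lists were chosen with earlier results of these data known. Class names are rebuilt here, so they may differ from the study's.

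UMIs were summed per class and library as CPM (per 1e+06 UMIs) with exact 95% Poisson intervals, ratios with exact Clopper-Pearson intervals and shares with exact binomial intervals at 500 UMIs per cell. UMIs of a cell are not independent. A gene was compared at a mean of at least 20 CPM and 20 UMIs in all, and called at 2-fold; a count of 0 was set to 3 UMIs. With 1 library per group no test or count model was run. The rule for named genes took all 10 members, the partner chains, the 2 list genes with the largest ratio either way and the 3 genes nearest in pattern to each member; other list genes, and leading genes of clusters, were named after their values were seen. TMM factors came from edgeR 4.0.16 in R 4.3.3. Promoter windows came from RefSeq (GRCm38.p6).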

Additional observations from a re-analysis of the deposited data

Results flagged for a closer look

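Icam1 pointed in opposite directions in 2 cell classes under the same contrast. The ratio of EAE TRAIL- over naive TRAIL- was 2.97 in endothelial-like and 0.567 in microglia-like cells, and the difference was not tested. Over all kept barcodes Selplg had a ratio of 1.10 in EAE TRAIL- over naive TRAIL- and 0.876 in EAE TRAIL+ over naive TRAIL+, and Itgam had 1.51 and 0.831 in the same order. These differences were not tested either.

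Barcodes under 500 UMIs, which entered no comparison, carried leukocyte-side signal in EAE. Itgb2 was 178 CPM (132 to 236) in EAE TRAIL- against 21.0 CPM (8.42 to 43.2) in naive TRAIL-. Cd44 was 97.4 CPM (60.3 to 149) in EAE TRAIL+ against 12.8 CPM (3.48 to 32.7) in naive TRAIL+, and 164 CPM (119 to 219) in EAE TRAIL- against 5.99 CPM (0.725 to 21.6) in naive TRAIL-.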

How the results depend on the processing

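No paired analysis was possible because each group is 1 library, and no replicate could be left out. Of 581 alternative values of 62 member ratios, 533 stayed within the counting interval and 46 moved beyond it. Another 2, of ratios past 2-fold, changed sign. Of 167 alternatives of ratios past 2-fold, 156 stayed past it. The 2 settings that change only the gene floor leave every ratio as it was. Their values are among the 533 without having been able to move, and the setting with no floor could lose no call. These tallies leave out values with 0 UMIs in either library, so calls lost that way are given only as counts of members. The log2 ratio of Cd44 in pericyte- or smooth muscle-like cells was -0.057 without the smooth muscle cluster, and that of Vcam1 in monocyte- and macrophage-like cells was -0.21 in monocyte-like cells alone, which left 0 members past 2-fold in either. Members past 2-fold also numbered 0 in pericyte- or smooth muscle-like cells at 1000 UMIs or more, and 0 in monocyte- and macrophage-like cells with classes from each barcode's own markers. They numbered 2 there with TMM scaling (Cd44 at 0.49), 2 in endothelial-like cells with at most 10% mitochondrial UMIs (Vcam1 at 2.18), and 2 in microglia-like cells, EAE TRAIL+ over EAE TRAIL-, with the few-marker barcodes kept.

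A floor of 50 CPM tests fewer genes. Genes past 2-fold then numbered 186 in endothelial-like, 274 in pericyte- or smooth muscle-like and 432 in monocyte- and macrophage-like cells; 84 (EAE TRAIL+ over naive TRAIL+), 549 (EAE TRAIL- over naive TRAIL-), 101 (EAE TRAIL+ over EAE TRAIL-) and 36 (naive TRAIL+ over naive TRAIL-) in microglia-like cells. Over all cells they numbered 181, 492, 1053 and 1447 in that order of comparisons. Members numbered 0 in the pericyte- or smooth muscle-like, the monocyte- and macrophage-like and the microglia-like comparisons of EAE TRAIL- over naive TRAIL- and of EAE TRAIL+ over EAE TRAIL-. With no floor beyond 20 UMIs 1190 genes passed in endothelial-like cells; microglia-like cells had 1152 (EAE TRAIL+ over naive TRAIL+), 1685 (EAE TRAIL+ over EAE TRAIL-) and 1320 (naive TRAIL+ over naive TRAIL-); and 2026, 2388, 4385 and 5134 over all cells, in the order of comparisons used for the 50 CPM floor. The members past 2-fold were then 2 in the endothelial-like comparison, 1 in the microglia-like one (EAE TRAIL+ over naive TRAIL+) and 3 over all cells (EAE TRAIL+ over naive TRAIL+).

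TMM scaling shifted all log2 ratios by between -0.14 and 0.22. Of the genes past 2-fold, the percent higher was 34.9 with TMM and 51.7 without in endothelial-like cells, 62.6 and 82.0 in microglia-like EAE TRAIL+ over naive TRAIL+, 76.0 and 54.8 in EAE TRAIL+ over EAE TRAIL-, 77.0 and 38.8 in naive TRAIL+ over naive TRAIL-, 44.3 and 54.7 in monocyte- and macrophage-like cells, and 43.3 and 32.4 over all naive cells. Depth limits Selp and Sele, which no setting brought to a comparison.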

Other observations

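Pericyte- or smooth muscle-like cells showed the clearest change of cytokine-induced genes. Of 15 measured, 7 were at least 2-fold higher in EAE TRAIL- and 0 lower, against a background of 6.3% higher and 7.37% lower of 6726 genes. The median log2 ratio of the list was 0.85, against -0.04 over all genes compared there. The interferon-induced chemokine Cxcl10 was 339 CPM in EAE TRAIL-, with 4.75 CPM (2 UMIs) in naive TRAIL-, Cxcl1 was 207 and 11.9 CPM, and Irf1 was 109 and 9.49 CPM in the same order. Il6 was 5.06-fold, Ccl2 3.41-fold and Nfkb2 2.85-fold higher. In the same cells Icam1 was 12.8 CPM in EAE TRAIL- against 14.2 CPM in naive TRAIL-, and Vcam1 12.8 against 9.49 CPM, with 6 UMIs or fewer each. Monocyte markers summed to 175 CPM in EAE TRAIL-, with 68.8 CPM in naive TRAIL- there, and their part in these values was not tested.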
